A study of Mus musculus with 29 samples.

Results

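The late genes described here were 95 of the 11959 genes measured in 3T3-L1 cells (0.794%), a line of mouse fibroblasts able to become white adipocytes in a dish. They were chosen on the vehicle samples alone, as genes whose mean level at day 7 of differentiation was 10 CPM or more and at least 4 times the mean of each of days 0, 1 and 2. CPM is the count of a gene per 1e+06 counts of its library. The 29 RNA samples formed 8 groups of the same unmodified cell line. Cells received vehicle (DMSO) or 10 µM C70, an inhibitor of KDM5 histone demethylases, from confluence at day -2 until the differentiation medium was added at day 0, and were collected at day 0, 1, 2 or 7. Vehicle groups of days 0, 1 and 2 held 3 replicates each, and the other 5 groups held 4. Both arms then received the same media. These held a PPARγ agonist, isobutylmethylxanthine, insulin and dexamethasone until day 2, and only insulin and dexamethasone after it. The day 7 samples were thus taken 7 days after C70 was withdrawn. The labels do not state whether replicates were separate cultures grown on separate days, so P values measure the spread between these samples.

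Adipocyte differentiation runs in stages. Preadipocytes first re-enter the cell cycle, then switch on the transcription factors PPARγ and C/EBPα, and last fill with lipid while taking up insulin-sensitive glucose transport, lipid synthesis, branched-chain amino acid breakdown and the secretion of adipokines. KDM5 enzymes remove methyl groups from lysine 4 of histone H3 (H3K4), a mark of active promoters. A late gene in this setting is one that the cells hold low through the early stages and use in the mature adipocyte.

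Total counts were 16320275 to 24037170 per sample, and replicates differed by more than counting noise in each of 39 pairs (chi-square per degree of freedom 2.65 to 46.7). Over all genes, day 7 vehicle replicate 1 stood apart, at 46.7, 45.9 and 39.8 against the other 3 vehicle replicates of that day. The pairs among those 3 gave 2.65 to 10.7. It also stood apart in some late genes. The counts over all late genes at day 7 are therefore given with and without it, and those of a functional group where a library moved them by over 1.5 times. The cells carried adipocyte markers: the summed level of 9 markers (Adipoq, Fabp4, Plin1, Cidec, Lpl, Cd36, Cebpa, Pparg and Lipe) at day 7 was 24830 to 27686 CPM in vehicle and 25952 to 28106 in C70 samples. Markers of preadipocytes or fibroblasts (9 of 10 in the table) summed to 3772 to 4866 CPM in vehicle and 7413 to 8825 in C70 at day 7, without overlap. Their part in the results below was not tested, and in bulk RNA fewer cells of a type cannot be told apart from less RNA per cell.

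In vehicle, the late genes rose by a median of 6.70 times over the highest earlier day, and 29 of 95 rose more than 10 times. These values chose the genes and are a description. Hp, which encodes haptoglobin, a plasma protein that binds free haemoglobin, rose 106.25 times. Apoc3 and Apoc1, apolipoproteins of triglyceride-rich lipoproteins, rose 77.8 and 28.3 times. Aldh1l1, an enzyme of folate metabolism, rose 66.6 times, and Cfd, the adipokine adipsin, rose 63.9 times. Levels at day 7 ran from 10.2 CPM to 28664.5 CPM for Scd1, with a median of 65.6. Per kilobase of exon, Scd1, Hp and Cfd led with 5859, 5076 and 3323 CPM, and the next, S100a1, had 379. At the edge of the fold rule, Epm2a (4.01 times) and Gde1 (4.01) were just inside, and Vsir (3.998) and Adssl1 (3.90) just outside. At the edge of the level rule, Epm2a (10.2 CPM) and Irf4 (10.4) were just inside, and Katnal2 (9.19) and Sspo (9.03) just outside. Every gene in the table exceeded 1 CPM in at least 20 samples, so a gene seen at day 7 alone, where there were 8 samples, was not analysed here.

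Of the late genes, 93 of 95 were protein coding. By function, 16 encoded secreted proteins, 18 enzymes and carriers of amino acid, one-carbon, mitochondrial or peroxisomal metabolism, and 10 enzymes acting on steroids, retinoids or xenobiotics. Another 6 belonged to lipid synthesis or leukotriene synthesis, 4 to glucose transport and glycogen, 5 were transcription factors or ubiquitin ligase subunits, 17 were receptors, channels or other surface proteins, 6 were linked to stress, hypoxia or interferon, 8 were cytoskeletal, vesicle or signalling proteins, and 5 fitted none of these. These groups were drawn up after the values had been seen, and the other genes of the table were not grouped in this way. Nothing is read from the counts of called genes in them.

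The start sites of the 3 deepest falls and 3 highest rises at day 7 that had a RefSeq entry are shown first, since these genes share late onset and differ in their response to C70. RefSeq promoters (GRCm38.p6) were found for 60 of the 95 genes, and each sequence is the 250 bases before the first listed start, read 5′ to 3′ on the strand of the gene. Isg20 (chr7:78913174-78913423, + strand), Gm9899 (chr5:30588620-30588869, - strand) and Aspg (chr12:112106433-112106682, + strand) had lower levels after C70, and Ifi205 (chr1:174031756-174032005, - strand), Cyp2e1 (chr7:140763569-140763818, + strand) and Serpina3c (chr12:104153873-104154122, - strand) had higher levels. Capitals mark the motifs that were found, TATAAA on the strand of the gene in Cyp2e1, where it starts 31 bases before the start site, and in Serpina3c (132 bases before).
Isg20: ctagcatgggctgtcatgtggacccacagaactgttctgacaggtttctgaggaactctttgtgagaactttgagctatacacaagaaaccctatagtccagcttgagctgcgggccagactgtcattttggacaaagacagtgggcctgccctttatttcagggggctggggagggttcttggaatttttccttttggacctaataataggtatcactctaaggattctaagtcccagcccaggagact
Gm9899: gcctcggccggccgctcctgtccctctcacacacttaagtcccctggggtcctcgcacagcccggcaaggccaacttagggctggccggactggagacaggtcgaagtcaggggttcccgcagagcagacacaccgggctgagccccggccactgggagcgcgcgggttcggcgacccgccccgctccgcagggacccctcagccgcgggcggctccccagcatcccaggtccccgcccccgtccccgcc
Aspg: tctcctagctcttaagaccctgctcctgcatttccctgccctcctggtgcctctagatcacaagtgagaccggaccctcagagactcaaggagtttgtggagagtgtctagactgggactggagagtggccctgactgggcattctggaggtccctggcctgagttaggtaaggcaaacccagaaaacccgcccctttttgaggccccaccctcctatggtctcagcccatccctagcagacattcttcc
Ifi205: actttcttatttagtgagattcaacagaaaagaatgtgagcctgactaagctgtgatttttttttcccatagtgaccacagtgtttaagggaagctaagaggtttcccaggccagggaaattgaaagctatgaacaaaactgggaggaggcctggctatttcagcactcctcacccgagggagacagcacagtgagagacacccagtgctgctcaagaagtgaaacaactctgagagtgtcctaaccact
Cyp2e1: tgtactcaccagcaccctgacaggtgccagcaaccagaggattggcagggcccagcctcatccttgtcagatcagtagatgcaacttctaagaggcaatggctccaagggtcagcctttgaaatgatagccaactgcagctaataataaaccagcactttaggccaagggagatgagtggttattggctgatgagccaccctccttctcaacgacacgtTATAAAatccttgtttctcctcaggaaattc
Serpina3c: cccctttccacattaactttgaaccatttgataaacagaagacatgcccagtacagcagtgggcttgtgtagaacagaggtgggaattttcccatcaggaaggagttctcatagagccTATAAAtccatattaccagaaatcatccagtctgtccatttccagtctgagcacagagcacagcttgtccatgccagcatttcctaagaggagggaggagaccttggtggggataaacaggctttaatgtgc

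The letters TATAAA occurred in 10% of the 60 late gene promoters and in 7.59% of all 32851 RefSeq promoters of this length. CACGTG, an E-box read on both strands, occurred in 10% against 6.02%. TTGCNNAA, a C/EBP motif, occurred in 8.33% against 9.56%, and AGGTCA, the half-site of nuclear receptors, in 11.7% against 14.02%, both on either strand. Among the promoters of the 9007 genes of the table with a RefSeq entry, the shares were 3.62% for TATAAA, 8.68% for CACGTG, 7.21% for TTGCNNAA and 9.915% for AGGTCA. A match is a description of the sequence, and the letters may also lie outside this window.

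After C70, the late genes still rose. All 95 were higher at day 7 than at day 2 within C70 samples, which the rule had not used (edgeR's quasi-likelihood test, adjusted P value under 0.05 and a log2 fold change beyond 0.32, the thresholds of every call here), where 27.6% of all genes were. The median log2 fold change from day 2 to day 7 in C70 samples was 2.96, with a range of 0.53 for Trarg1 to 7.12 for Cfd, against -0.012 over all genes. All 95 were also higher than at day 1 (33.1% of all genes) and at day 0 (35.9%). Applied to the C70 columns, the same rule found 121 genes, 70 of which were late genes of vehicle. These 70 were 73.7% of the vehicle list and 57.9% of the C70 list. The 25 genes that met the rule in vehicle alone had each fallen short of 4 times an earlier C70 mean, and 4 of them were also under 10 CPM at day 7 after C70. The smallest rises over the highest earlier C70 day were those of Ndrg1 and Trarg1, at 1.3 times each.

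**Figure D1:**
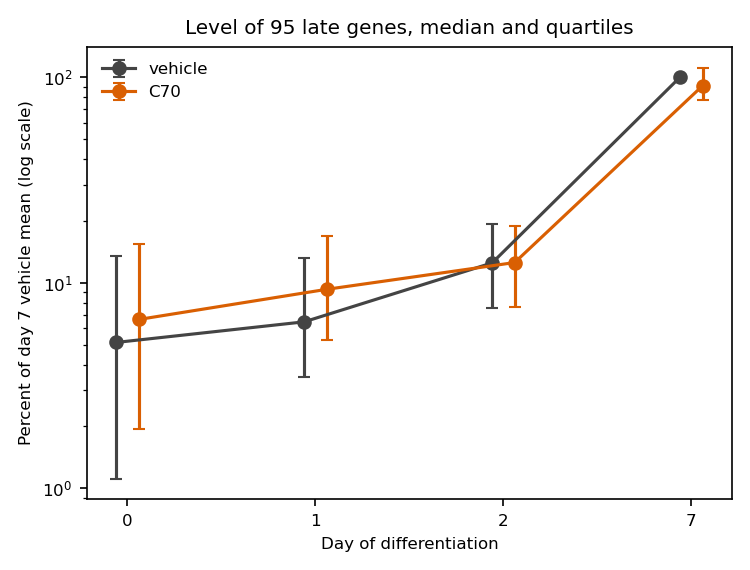
Level of the 95 late genes as a percent of each gene's own day 7 vehicle mean (log scale) against day of differentiation; points are medians over genes and bars the quartiles, in vehicle and C70. On days 0, 1, 2 and 7 the C70 median stood at 6.63%, 9.29%, 12.5% and 90.9%, beside 5.12%, 6.45% and 12.5% in vehicle on the first 3 days.

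At day 7, late genes changed after C70 in both directions. Of the 95, 23 were lower after C70 and 13 higher, and 59 passed neither way. Over all genes tested, 4.85% were lower and 14.3% higher. The vehicle samples of this comparison also chose the genes, as those high in vehicle at day 7, so the count of lower genes is not independent of the choice. The median log2 fold change was -0.086 over the late genes and 0.0038 over all genes. The level in C70 was a median of 90.9% of that in vehicle, from 32.4% for Ndrg1 to 258% for Ifi205. Without day 7 vehicle replicate 1, 22 were lower and 18 higher at the same thresholds, and the median was -0.029. The shares above are from the full fit and those of this refit are not given here, so its counts are not compared with all genes. With a fold change over 1.5, 10 were lower and 6 higher (0.87% and 7.93% of all genes), and on the adjusted P value alone 33 were lower and 22 higher, where 18.8% and 22.3% of all genes were. All 4 C70 replicates lay below all 4 vehicle replicates for 34 late genes and above them for 16, beside 18.8% and 13.1% of all genes. Without day 7 vehicle replicate 1, 38 and 25 did not overlap, beside 27.4% and 15.9% of all genes. In that refit a fold change over 1.5 gave 10 lower and 8 higher, and the adjusted P value alone gave 32 and 30. The shares of all genes for these last counts are not given here, so nothing is read from them.

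**Figure D2:**
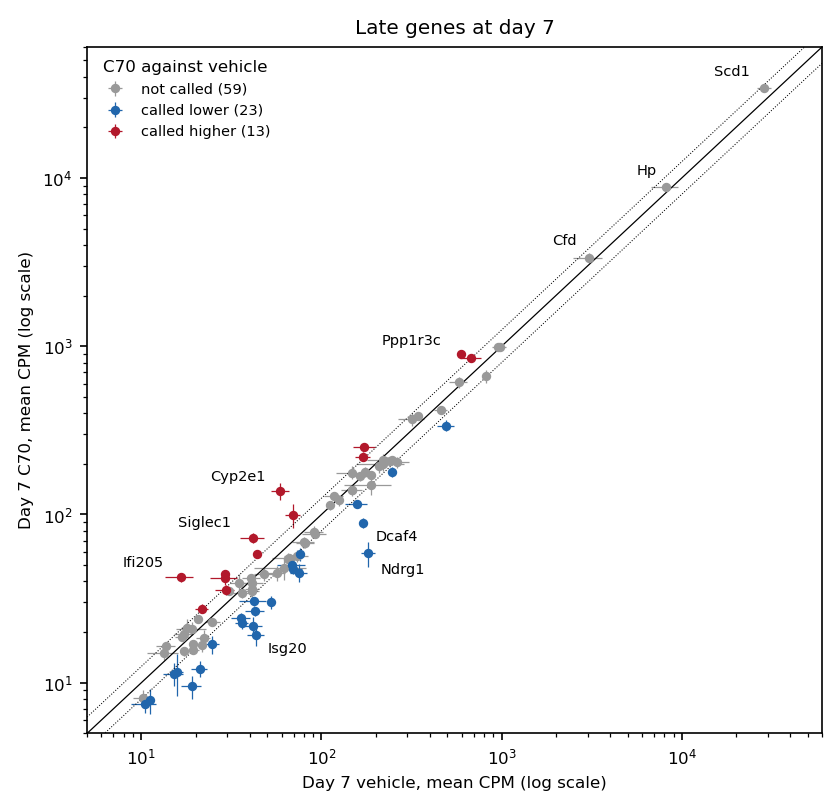
Mean CPM at day 7 in C70 against vehicle (both log scales) for the 95 late genes, with bars of 1 SD over 4 replicates, the line of equality and dotted lines at a log2 fold change of 0.32 either way. The 23 genes called lower had mean vehicle levels up to that of Elovl5 (493 CPM), while Scd1, Hp and Cfd, at 3064 CPM or more, were not called.

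The effect of C70 was also counted on the earlier days. At day 0, 31 of 95 were higher and 1 lower (5.89% and 3.09% of all genes), with a median log2 change of 0.39. At day 1, 50 were higher and 7 lower (13.6% and 7.8% of all genes), with a median of 0.52. At day 2, 32 were higher and 27 lower (16.9% and 13.6% of all genes), with a median of -0.050. The medians over all genes were between -0.0060 and -0.00043 on these days. The early vehicle samples also entered the rule, as the days when the genes were low, so the counts of higher genes on these days are not independent of the choice. The median late gene stood at 9.29% of its day 7 vehicle mean after C70 at day 1, against 6.45% in vehicle. The rule kept early vehicle levels low beside day 7, so these percentages are a description. Some genes stood nearer their day 7 vehicle mean, as Trarg1 did after C70 at day 2, with 45.4 CPM against 75.9.

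**Figure D3:**
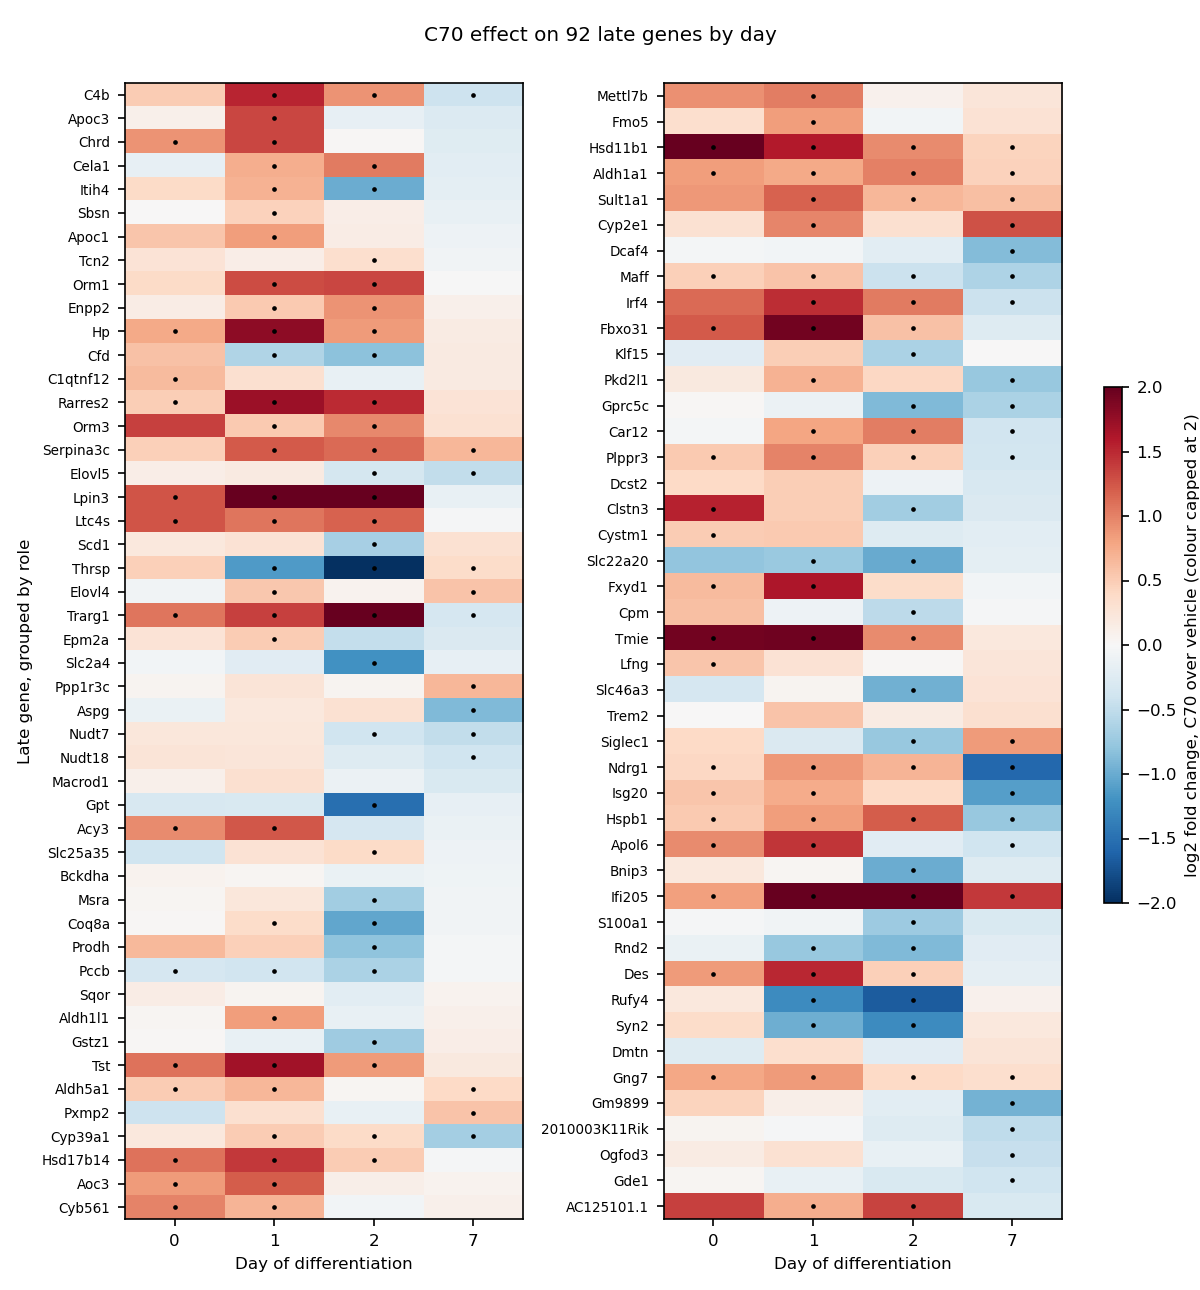
Log2 fold change, C70 over vehicle, for 92 of the 95 late genes at days 0, 1, 2 and 7 (red higher, blue lower, colour capped at 2), with dots on the changes that passed both thresholds. Over all 95, higher genes numbered 31, 50, 32 and 13 and lower genes 1, 7, 27 and 23 on the 4 days.

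The 2 deepest falls at day 7 were those of Ndrg1 and Isg20. They were placed with genes linked to stress, hypoxia and interferon. Of these, 4 of 6 were lower after C70 and 1 higher, beside 4.85% and 14.3% of all genes. Ndrg1 (chromosome 15, 66929318 to 66969640, GRCm38), a gene induced by hypoxia and differentiation, had 159, 185, 188 and 196 CPM in vehicle and 56.1, 60.2, 47.8 and 71.4 in C70. Every C70 sample was below every vehicle sample, and the means were 182 ± 15.9 and 58.9 ± 9.83 CPM (SD, n = 4 each). Its log2 fold change was -1.57 (SE 0.0743, adjusted P = 2.38e-16, edgeR's quasi-likelihood test). The same gene was higher after C70 on each earlier day, with log2 fold changes of 0.41, 0.86 and 0.67 at days 0, 1 and 2. After C70 its mean was 46.0 CPM at day 0, 47.0 at day 1 and 22.1 at day 2, so the day 7 mean was 1.3 times the highest earlier one, against 5.14 times in vehicle.

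Isg20 (chromosome 7, 78913424 to 78920396), an interferon-induced exonuclease that degrades RNA, had 48.1, 40.5, 37.8 and 45.9 CPM in vehicle and 20.1, 22.2, 15.5 and 19.3 in C70 at day 7. The groups did not overlap, and the log2 fold change was -1.10 (SE 0.094, adjusted P = 7.04e-11). Hspb1 (chromosome 5, 135887919 to 135889563), a small heat shock chaperone, went from 21.1 ± 2.16 CPM to 12.1 ± 1.34 (SD, n = 4 each, log2 fold change -0.75, adjusted P = 3.01e-07 in edgeR). At day 2 Hspb1 had been higher after C70, with 6.69 CPM against 2.90 (log2 fold change 1.21). Apol6, of the apolipoprotein L family, fell by 0.40 at day 7 (log2) after being higher at day 0 (0.95) and day 1 (1.43). Bnip3, a mitophagy receptor, had 861, 803, 792 and 830.5 CPM in vehicle and 661, 742, 614 and 637 in C70 at day 7. Its samples did not overlap, but its log2 fold change of -0.25 (adjusted P = 0.00293 in edgeR) missed the fold change threshold. Bnip3 fell by 1.00 at day 2, where vehicle had 196 CPM and C70 98.5.

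Ifi205 (chromosome 1, 174011998 to 174031810), of the interferon-inducible p200 family, moved the other way. It had 20.4, 14.1, 14.5 and 16.9 CPM in vehicle and 41.2, 39.4, 44.5 and 44.8 in C70 at day 7. Each C70 sample was above each vehicle sample, and the log2 fold change of 1.42 (SE 0.0908, adjusted P = 1.81e-13) was the highest among the late genes. Ifi205 was higher after C70 on all 4 days, by 0.81, 2.14 and 2.24 on the first 3. Its C70 mean of 14.9 CPM at day 2 was near the day 7 vehicle mean of 16.5. Ifi205 belongs to a gene family whose members lie side by side, so its reads may be shared with them. Of 24 genes on a list of interferon and antigen presentation genes, none a late gene, 4 were higher at day 7, beside 14.3% of all genes, and the median log2 change was 0.19.

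**Figure D4:**
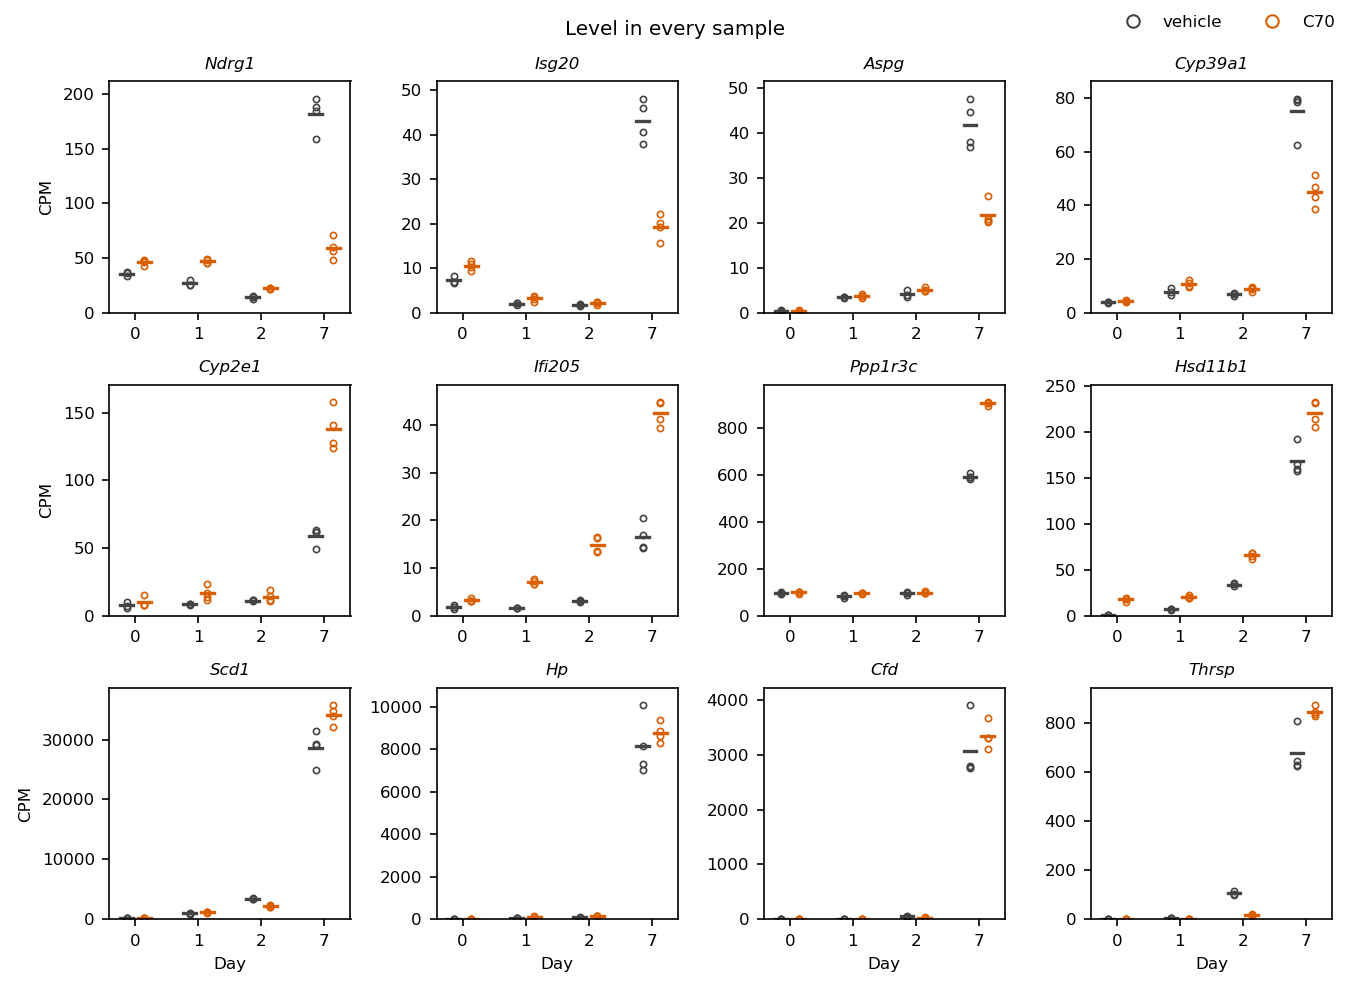
CPM in every sample against day of differentiation for 12 late genes, with vehicle in grey, C70 in orange and bars at the group means; each panel has its own linear axis from 0. Ndrg1, Isg20, Aspg and Cyp39a1 were lower in all 4 C70 samples at day 7, and Cyp2e1, Ifi205, Ppp1r3c, Hsd11b1, Scd1 and Thrsp were higher in all 4. For Hp and Cfd the groups overlapped, through vehicle replicate 1 alone.

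Enzymes of steroids, retinoids and xenobiotics held 4 of the 13 rises. Of the 10 genes, 4 were higher and 1 lower at day 7, with a median log2 change of 0.26, and all 10 had been higher at day 1, beside 14.3% higher and 4.85% lower at day 7 and 13.6% higher at day 1 among all genes. The group was drawn up after the values had been seen, so nothing is read from its counts. Cyp2e1 (chromosome 7, 140763739 to 140774987), a cytochrome P450 that oxidizes ethanol and other small molecules, had 61.9, 62.1, 63.3 and 49.6 CPM in vehicle and 127, 158, 141 and 124 in C70. The C70 samples were all above the vehicle samples, and the log2 fold change was 1.27 (SE 0.148, adjusted P = 3.86e-08). Sult1a1, a phenol sulfotransferase, rose from 173 ± 23.9 to 252 ± 3.83 CPM (SD, n = 4 each, log2 fold change 0.60, adjusted P = 7.75e-08 in edgeR). Aldh1a1, which makes retinoic acid from retinal, rose from 44.1 ± 2.23 to 58.4 ± 2.38 CPM (SD, n = 4 each, log2 fold change 0.46, adjusted P = 3.08e-05 in edgeR).

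Hsd11b1 (chromosome 1, 193221634 to 193264075) regenerates active glucocorticoid from its inert form. At day 7 it had 193, 158, 160 and 165 CPM in vehicle and 205, 233, 214 and 232 in C70, without overlap (log2 fold change 0.44, SE 0.0722, adjusted P = 1.18e-05). Its difference was larger before differentiation, with 1.07 ± 0.483 CPM in vehicle (SD, n = 3) and 17.9 ± 1.66 in C70 (SD, n = 4) at day 0, a log2 fold change of 4.10. At days 1 and 2 the log2 fold changes were 1.59 and 0.95. The single fall of this class was Cyp39a1 (chromosome 17, 43667425 to 43751431), a hydroxylase of oxysterols, with 62.6, 79.7, 79.1 and 78.3 CPM in vehicle and 43.2, 51.3, 46.9 and 38.6 in C70. Its log2 fold change was -0.68 (SE 0.0764, adjusted P = 1.77e-08), after 0.51 at day 1 and 0.38 at day 2. Of the other members, Aoc3, an amine oxidase of the adipocyte surface, had 974 ± 88.1 CPM in vehicle and 983 ± 12.9 in C70 (SD, n = 4 each, adjusted P = 0.315 in edgeR) at day 7, although it was higher after C70 at day 0 (0.86) and day 1 (1.22). Among 26 other redox and xenobiotic genes in the table, 9 were higher and 1 was lower at day 7 (14.3% and 4.85% of all genes), with a median log2 change of 0.12.

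Of the 16 secreted proteins, adipokines among them, 13 were higher and 1 lower after C70 at day 1 (13.6% and 7.8% of all genes), and 9 were higher and 2 lower at day 2 (16.9% and 13.6%). At day 7, 1 was higher and 1 lower (14.3% and 4.85% of all genes), with a median log2 change of -0.035. Without day 7 vehicle replicate 1, 5 were higher (Serpina3c, Cfd, Rarres2, C1qtnf12 and Orm3) and the median was 0.15. The share of all genes called in that refit is not given here. Without C70 replicate 4, 2 were higher (Serpina3c and Orm3), and without vehicle replicate 2 or 3, 2 were lower (C4b and Apoc3). Hp had 10094, 7307, 7036 and 8174 CPM in vehicle and 8612, 9377, 8316 and 8857 in C70 at day 7. These groups overlapped through vehicle replicate 1 alone, at 10094 CPM, and the log2 fold change was 0.16 (SE 0.0951, adjusted P = 0.186). Without that replicate they did not overlap, and Hp was still not called. Before that Hp had been higher after C70, by 0.75, 1.78 and 0.86 at days 0, 1 and 2, with 139 CPM against 76.7 at day 2. Rarres2, the adipokine chemerin, was likewise higher at days 0, 1 and 2 (0.50, 1.71 and 1.5), and at day 7 had 316 CPM in vehicle and 368 in C70 (log2 fold change 0.27, adjusted P = 0.0116 in edgeR), short of the fold change threshold.

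Cfd was lower after C70 at day 1 (-0.60) and day 2 (-0.82), with 47.9 CPM in vehicle and 27.2 in C70 at day 2. At day 7 vehicle had 3911, 2797, 2769 and 2780 CPM and C70 3306, 3683, 3312 and 3102, and the log2 fold change was 0.18 (SE 0.0842, adjusted P = 0.0892). Without day 7 vehicle replicate 1, the highest of the vehicle samples, it was 0.34 (adjusted P = 1.46e-06 in edgeR), past both thresholds. Enpp2, the enzyme autotaxin that makes lysophosphatidic acid, had 959 ± 42.4 CPM in vehicle and 989 ± 44.7 in C70 at day 7 (SD, n = 4 each). It had been higher after C70 at days 1 and 2, by 0.52 and 0.89. Serpina3c (chromosome 12, 104146382 to 104153870), a serine protease inhibitor, was the rise of the group, with 29.5, 30.6, 27.5 and 28.2 CPM in vehicle and 42.8, 43.9, 46.9 and 43.7 in C70. The log2 fold change was 0.67 (SE 0.0769, adjusted P = 2.98e-08). C4b, a complement component, was the fall, with 42.1 ± 7.4 CPM in vehicle and 30.4 ± 1.69 in C70 (SD, n = 4 each, log2 fold change -0.41, adjusted P = 0.00194 in edgeR). Serpina3c, Orm1, Orm3 and C4b have close paralogs next to them, so their reads could have been divided. Of 12 other complement and acute phase genes in the table, 7 were higher and 1 lower at day 7 (14.3% and 4.85% of all genes), with a median of 0.45.

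**Figure D5:**
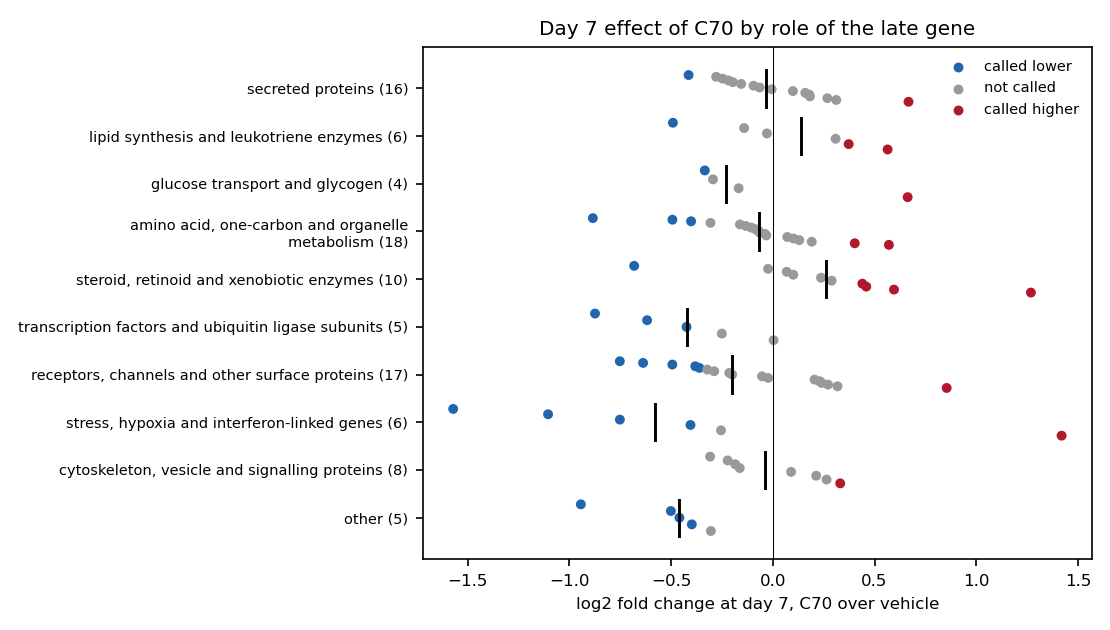
Log2 fold change at day 7, C70 over vehicle, for each late gene grouped by function, with the median of each group as a black bar; blue points were called lower, red higher and grey not called. The stress, hypoxia and interferon group had the lowest median (-0.58) and the steroid, retinoid and xenobiotic group the highest (0.26).

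The lipid synthesis genes included Scd1, the most abundant late gene, and gave 2 rises and 1 fall among 6 at day 7 (14.3% and 4.85% of all genes). Scd1 (chromosome 19, 44394455 to 44407879), the desaturase that makes oleate, fell after C70 at day 2 from 3414 to 2154 CPM (log2 fold change -0.67). At day 7 it had 24993.5, 31379, 29082 and 29204 CPM in vehicle and 35777, 32173.5, 34793 and 33963 in C70. All C70 samples were above all vehicle samples, with a log2 fold change of 0.31 (SE 0.0609, adjusted P = 0.000142), just under the fold change threshold. Thrsp (chromosome 7, 97412938 to 97417730), a nuclear protein tied to lipogenesis, fell by 2.57 at day 2, with 98.1, 113 and 104 CPM in vehicle and 17.4, 21.6, 17.5 and 14.2 in C70. At day 7 Thrsp had 810, 646, 624 and 628 CPM in vehicle and 873, 846, 829 and 837 in C70, a rise of 0.37 (SE 0.0859, adjusted P = 0.000816). In these genes the C70 samples were all below vehicle at day 2 and all above it at day 7.

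The fatty acid elongases parted. Elovl4, which extends very long chains, rose from 69.4 ± 6.29 to 98.9 ± 15.9 CPM (SD, n = 4 each, log2 fold change 0.56, adjusted P = 8.27e-07 in edgeR). Elovl5, which extends polyunsaturated chains, had 419, 524, 542 and 485 CPM in vehicle and 358, 360, 309 and 322 in C70 at day 7, without overlap, and fell by 0.49 (SE 0.055, adjusted P = 1.78e-08). Of 18 other genes of fatty acid and triglyceride synthesis, 14 were lower at day 2 (13.6% of all genes), and the median log2 change was -0.72. At day 7, 3 of the 18 were lower (Acacb, Scd2 and Acss2) and 2 higher (Acaca and Acly), with a median of -0.017. Over all genes, 4.85% were lower and 14.3% higher at day 7.

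Of the 4 genes of glucose transport and glycogen, Ppp1r3c was called higher at day 7 and Trarg1 lower (14.3% and 4.85% of all genes). Trarg1 lost its call without day 7 vehicle replicate 4, C70 replicate 1 or C70 replicate 4, and Epm2a gained one without vehicle replicate 2 or C70 replicate 2. Ppp1r3c (chromosome 19, 36731731 to 36736653) targets a protein phosphatase to glycogen, and had 609, 581, 592 and 590 CPM in vehicle and 907, 911, 892 and 907 in C70 at day 7. The replicates were tight and far apart, with a log2 fold change of 0.66 (SE 0.045, adjusted P = 6.35e-13). On the earlier days its log2 fold changes were 0.06, 0.26 and 0.05, none called. Slc2a4, the insulin-responsive glucose transporter GLUT4, had 255, 246, 238 and 246 CPM in vehicle and 199, 221, 214 and 211 in C70 at day 7 (log2 fold change -0.17, adjusted P = 0.0611 in edgeR). It had been lower at day 2, by 1.22, with 22.5 CPM in vehicle and 9.68 in C70. Trarg1, which helps bring GLUT4 to the cell surface, showed the reverse order, with 9.47 CPM in vehicle and 45.4 in C70 at day 2 (2.26), and 75.9 and 58.0 at day 7 (-0.33, adjusted P = 9.72e-05 in edgeR).

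Amino acid and organelle metabolism had 3 lower, 2 higher and 13 uncalled genes of 18 at day 7, and a median of -0.068. Over all genes, 4.85% were lower and 14.3% higher at day 7. Without day 7 vehicle replicate 1 there were 2 lower, and the median was -0.010. At day 2, 7 of these genes had been lower and 2 higher (13.6% and 16.9% of all genes), the lower ones including Gpt (-1.52), alanine aminotransferase, Coq8a (-1.03), a protein of coenzyme Q synthesis, Prodh (-0.80), proline dehydrogenase, and Gstz1 (-0.72), of tyrosine breakdown. At day 7 Gstz1 had 577 ± 64.0 CPM in vehicle and 609 ± 43.1 in C70 (SD, n = 4 each, adjusted P = 0.0973 in edgeR). Bckdha and Pccb, of branched-chain amino acid and propionate breakdown, differed by -0.09 and -0.03 at day 7 (adjusted P = 0.217 and 0.577 in edgeR).

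Aspg (chromosome 12, 112106679 to 112127559), an asparaginase, was the largest fall of this class. It had 36.9, 47.6, 44.6 and 38.01 CPM in vehicle and 20.8, 25.9, 20.3 and 20.2 in C70 at day 7, without overlap (log2 fold change -0.88, SE 0.0906, adjusted P = 2.99e-09). Aspg was not called on any earlier day. Nudt7, a coenzyme A diphosphatase, was lower (-0.49, adjusted P = 9.11e-06 in edgeR), and Pxmp2, a channel of the peroxisomal membrane, was higher, from 29.1 ± 4.98 CPM to 41.7 ± 3.48 (SD, n = 4 each, 0.57, adjusted P = 1.52e-05 in edgeR).

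Of the 5 transcription factors and ubiquitin ligase subunits, 3 were lower at day 7, beside 4.85% of all genes. Dcaf4 (chromosome 12, 83520466 to 83541920), a substrate receptor of cullin-RING ubiquitin ligases, had 166, 168, 168 and 177 CPM in vehicle and 81.8, 97.1, 87.0 and 91.4 in C70 at day 7. It was not called on the first 3 days (-0.04, -0.06 and -0.21), and the day 7 log2 fold change was -0.87 (SE 0.0504, adjusted P = 2.16e-14). Maff, a small Maf factor, fell from 36.1 ± 2.95 to 22.6 ± 1.73 CPM (SD, n = 4 each, -0.62, adjusted P = 1.49e-07 in edgeR). Irf4, a factor of adipocyte lipolysis and thermogenesis, fell from 10.4 ± 1.62 to 7.47 ± 0.843 CPM (SD, n = 4 each, -0.42, adjusted P = 0.00651 in edgeR). The Irf4 groups overlapped, with 8.04 CPM in vehicle replicate 1 and 8.59 in C70 replicate 4. Klf15, a factor of amino acid and lipid metabolism, had 125 CPM in vehicle and 121 in C70 (log2 fold change 0.0039, adjusted P = 0.967 in edgeR), after a fall of 0.64 at day 2.

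Surface proteins gave 5 falls and 1 rise among 17 genes (4.85% and 14.3% of all genes), with a median of -0.20. The falls numbered 3 when C70 replicate 1 of day 7 was left out, since Plppr3 and Car12 lost their calls, and there were 2 rises without vehicle replicate 1 (with Trem2) or vehicle replicate 4. Pkd2l1 (chromosome 19, 44147637 to 44192442), a cation channel of the polycystin family, had 50.8, 52.0, 53.7 and 53.4 CPM in vehicle and 29.7, 33.3, 30.5 and 26.8 in C70 (-0.75, SE 0.0866, adjusted P = 2.93e-08). Gprc5c, an orphan G protein-coupled receptor, fell from 43.0 ± 5.19 to 26.6 ± 1.71 CPM (SD, n = 4 each, -0.64, adjusted P = 2.19e-06 in edgeR). It had also been lower at day 2 (-0.88).

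Siglec1 (chromosome 2, 131069220 to 131086765), a sialic acid lectin best known from macrophages, was the rise. It had 33.9, 48.5, 45.3 and 39.4 CPM in vehicle and 70.98, 67.5, 79.6 and 72.9 in C70 at day 7, without overlap (0.85, SE 0.0842, adjusted P = 1.41e-09). At day 2 it had been lower after C70, with 8.59 CPM against 5.15 (-0.75). The macrophage markers Cd68 and Cd14, the 2 of 8 in the table, summed to 4.18 to 5.80 CPM in vehicle and 3.61 to 5.34 in C70 at day 7, and these ranges overlap. On the earlier days their sum was higher after C70 without overlap, with 8.15 to 9.22 CPM in vehicle and 26.1 to 27.6 in C70 at day 0, 4.34 to 5.28 and 18.01 to 20.6 at day 1, and 3.15 to 4.18 and 9.20 to 10.3 at day 2. The part of such cells in the Siglec1 values was not tested.

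Cytoskeletal, vesicle and signalling proteins gave 1 rise among 8, beside 14.3% of all genes. This was Gng7, a G protein subunit (0.33, adjusted P = 0.00314 in edgeR), which lost its call without day 7 vehicle replicate 1, 2 or 3 or C70 replicate 4. S100a1 was lower without vehicle replicate 2, 3 or 4 or C70 replicate 2. Desmin (Des), an intermediate filament of muscle, differed by -0.18 at day 7 (adjusted P = 0.0545 in edgeR). Of the 5 genes outside these groups, 4 were lower, beside 4.85% of all genes. The largest of these falls was that of Gm9899 (chromosome 5, 30573987 to 30588619), a noncoding transcript antisense to Kcnk3. It had 19.1 ± 2.35 CPM in vehicle and 9.52 ± 1.47 in C70 (SD, n = 4 each, -0.94, adjusted P = 2e-07 in edgeR). Kcnk3 was lower after C70 at day 7 too, with 469 CPM in vehicle and 306 in C70 (log2 fold change -0.56). Whether reads of Kcnk3 entered the count of Gm9899 was not tested. In all, 38 late genes overlap an antisense gene, Ndrg1, Hsd11b1, Sult1a1, Aldh1a1, Pxmp2, Aspg, Bnip3 and Gm9899 among them, and the strand setting of the counting is not given in the sources used here.

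Of the 23 late genes lower at day 7, 12 had been higher after C70 at day 1 and 8 at day 2, while 5 had been lower at day 2. Of the 580 genes of the whole table that were lower at day 7, 11.2% had been higher at day 1, 8.28% higher at day 2 and 35.9% lower at day 2. The rule, low early and high late in vehicle, favours genes that are higher after C70 early and lower late, and nothing is read from these shares. Of the 13 higher at day 7, 9 had been higher at day 1 and 6 at day 2, and 1 (Thrsp) and 2 (Thrsp and Siglec1) had been lower. Of the 1707 genes of the table higher at day 7, 46% and 64.9% had been higher on these days, and 3.4% and 3.87% lower. The change of effect between days was not tested, since the vehicle samples of both days chose the genes. In all, 18 were higher at days 0, 1 and 2, of which Aldh1a1, Gng7, Hsd11b1 and Ifi205 were higher at day 7 too, and 17 were called in both directions on different days, where 3.34%, 2.06% and 2.83% of all genes showed these 3 patterns. Another 6 were called on none of the 4 days, as were 55.5% of all genes. Lpin3, a phosphatidate phosphatase, had the highest log2 fold change of the late genes at day 2, with 1.00 CPM in vehicle and 5.56 in C70 at day 2 (log2 fold change 2.47) and 19.3 and 16.9 CPM at day 7 (-0.14, adjusted P = 0.161 in edgeR).

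The genes that met the rule in 1 arm alone differed in where the arms parted. Among the 25 that met it in vehicle alone, 16 were higher after C70 at day 2 and 2 lower, and 14 were lower at day 7 and 3 higher, with a day 7 median log2 fold change of -0.36. Among the 51 that met it in C70 alone, 40 were lower after C70 at day 2 and 3 higher, and 6 were lower at day 7 and 9 higher, with a day 7 median of 0.047. Among the 70 that met it in both, 9 were lower and 10 higher at day 7, with a median of -0.023. Over all genes, 16.9% were higher and 13.6% lower at day 2, and 14.3% higher and 4.85% lower at day 7. These directions are in part what meeting a rule in 1 arm requires, and they are given as a description.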

How the data were processed

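RNA-seq libraries of 29 samples in 8 groups were read from the deposited table of counts. The submitters' notes and the study's methods name STAR 2.7.2a as the authors' aligner and GRCm38 as the genome, and the notes name edgeR 3.26.8. The counting program, its strand setting and the filter that left 11959 genes are not given in the sources used here. The deposited values are whole-number counts although the table is named as normalized. Symbols were found for 11953 genes in the GRCm38 annotation.

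Late genes were selected on CPM from column totals. Trimmed mean of M values (TMM) factors scaled the counts, which were fitted in edgeR 4.0.16 (R 4.3.3) with 8 group means in 1 quasi-likelihood model over all 29 samples. Tests were two-sided with Benjamini-Hochberg adjustment over all genes of a comparison, and a gene was called when this value was under 0.05 and the log2 fold change exceeded 0.32 in size. Printed levels are CPM, printed fold changes are from the TMM fit, and TMM factors at day 7 were 0.915 to 0.953 in vehicle and 0.898 to 0.910 in C70. Alternatives were DESeq2 1.42.0, other scalings, filters and thresholds, other folds in the rule, single-day fits with and without a replicate block, and leaving out each library. Methods were tested on simulated data. Figures used matplotlib 3.10.9.

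The late genes, the gene lists and the alternatives were chosen with earlier results of these data known. Genes named were the 10 largest falls and 10 largest rises among calls without replicate overlap, the 10 highest vehicle levels, members of the lists and the rule's edges. Other names, and the functional groups, were chosen after the values were seen. The other experiments of the study were not analysed here. Some late genes enter the counts but are not reported here by name.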

Additional observations from a re-analysis of the deposited data

Results flagged for a closer look

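Among 73 sets of 4 replicate values examined, 9 held a value far from the other 3, where chance gives about 1 in 20 (3.65 of 73). Day 7 vehicle replicate 1 held 4 of them, with 3911 CPM for Cfd, 809.6 for Thrsp, 208.5 for Sult1a1 and 62.56 for Cyp39a1. Day 7 C70 replicate 2 held 2, with 25.87 CPM for Aspg and 673.2 for Gstz1. Day 7 vehicle replicate 4 had the lowest Cyp2e1, at 49.55 CPM. Total counts stood apart in day 0 C70 replicate 4 (about 24040000) and day 7 vehicle replicate 3 (about 21430000).

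For 14 of the 95 late genes, every C70 replicate was on one side of every vehicle replicate at day 2 and on the other side at day 7, as in 3% of all genes, and the vehicle samples of both days chose the late genes. Of these, 9 were higher after C70 at day 2, with day 7 log2 fold changes of -1.57 for Ndrg1, -0.7515 for Hspb1, -0.6813 for Cyp39a1, -0.4138 for C4b, -0.3341 for Trarg1, -0.2503 for Fbxo31, -0.2185 for Cela1, -0.1409 for Lpin3 and -0.1059 for Slc25a35. The other 5 were lower after C70 at day 2, with day 7 values of 0.8544 for Siglec1, 0.3729 for Thrsp, 0.3088 for Scd1, 0.2714 for Slc46a3 and 0.2133 for Syn2. The difference between the days was not tested.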

How the results depend on the processing

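The number of late genes was 151 with a rule of 3 times and 37 with 8 times. With 3 times, 39 were lower after C70 at day 7, and with 8 times 5 were lower and 3 higher, beside 4.85% lower and 14.3% higher among all genes. Of the 95 late genes, 39 met a rule of 8 times in C70 samples. A fold change over 1.5 left 10 lower and 6 higher at day 7 (0.87% and 7.93% of all genes), and the adjusted P value alone gave 22 higher (22.3% of all genes). Leaving out 1 library at a time gave 20 to 31 lower, 13 to 18 higher and a median log2 fold change of -0.12 to -0.015 at day 7. This range includes choosing the genes again where the library was a day 7 vehicle library, and only there. The shares of all genes called in these refits are not given here. The highest count of 18, and the median of -0.029 (-0.015 with the genes chosen again), came without day 7 vehicle replicate 1. Cfd, Rarres2, C1qtnf12, Trem2, Mettl7b and Orm3 were then called higher, and Gng7 no longer was. AC125101.1 was then called lower, and Gde1 and Nudt18 no longer were. Scd1 passed both thresholds without day 7 vehicle replicate 2 (0.35) or C70 replicate 2 (0.34), and Cfd without vehicle replicate 1 (0.34). Car12, Plppr3 and Trarg1 also lost their calls without 1 day 7 library. The count of 1 lower gene at day 0 ranged from 0 to 2 without 1 library.

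Over 35 fits, 18 of the 23 lower genes and 12 of the 13 higher genes kept their call in each fit that tested them. Irf4 and Ogfod3, both among the 18, were not tested in the fit of genes with a mean of 5 CPM or more. Same-numbered day 7 samples correlated at -0.205 to 0.214 and differently numbered ones at -0.252 to 0.326. These values gave no sign of pairing by number, but 4 same-numbered pairs are too few to exclude it. A replicate block within day 0 gave 0 lower genes. Without day 7 vehicle replicate 1, late genes with every C70 replicate above vehicle at day 7 numbered 25, against 16. Each of the other counts over all late genes, under the alternatives that were run, stayed within 1.5 times the value reported, while counts of the functional groups moved further without 1 library, as given beside them (alternatives chosen after seeing the data). The count of lower genes at day 7 rests on 4 vehicle libraries that also chose the genes, and the table's filter keeps out genes seen at day 7 alone.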
